A study of Drosophila melanogaster with 6 samples.

Results

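The genes described here encode the subunits of the proteasome, its regulator PI31 and the paralogs of its subunits. They were chosen by name: every probe set with a single gene symbol, updated to the current symbol, that begins with Rpn, Rpt, Prosalpha or Prosbeta, or is PI31. This gave 41 of the 11982 genes with a single-symbol probe set, each represented by 1 probe set. They fell into 6 alpha ring genes, 6 beta ring genes, 7 base genes, 7 lid genes, PI31 and 14 paralogs. Prosbeta1, Rpn9, Rpn10, Rpt1, Rpt6 and Rpt6R were not analysed here, and Prosalpha1 and Prosalpha1R share a probe set that was kept out of the counts.

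RNA was measured on 6 Affymetrix arrays of Drosophila melanogaster S2 cells, a haemocyte-like line from late embryos, 48 h after transfection. Per the series design, the control cells received an empty vector (2 arrays, called control transfection in the titles), so all groups went through transfection. The other cells received pAc-Clk at 10 ng (2 arrays), 30 ng (1 array) or 100 ng (1 array). This is a plasmid that carries Clk, the bHLH-PAS activator of the circadian clock. Plasmids of this name use a constitutive actin promoter, and the sources used here do not give the share of cells that took it up. Nothing in the labels says that replicate arrays came from separate cultures, and the p-values therefore reflect only how these arrays vary, which may be technical.

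The proteasome degrades proteins that carry ubiquitin chains. Its core particle is a barrel of stacked rings: the outer alpha rings gate entry, and the inner beta rings hold the proteolytic sites. A regulatory particle sits on the barrel, with a base of Rpt ATPases and Rpn subunits that bind and unfold substrates and a lid that removes the ubiquitin chain. Subunits are built into the complex in fixed proportions, and in Drosophila, as in mammals, proteasome genes are known to be induced together through a bZIP factor, Cnc in the fly. Several subunits have a second gene in Drosophila, and many of these paralogs are known for expression in the male germ line.

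Levels are log2 values on an inferred scale, since no source used here states the base in which the deposited intensities were written. Taking them at face value would multiply each log2 change by 1.44. The array's Tag control probe sets detect no fly transcript, and the highest of these 17 read 2.96 and 2.97 on the controls, 2.95 and 3.22 on the 10 ng arrays, 3.18 on the 30 ng array and 3.56 on the 100 ng array. It serves here as the background of each array. The haemocyte markers read above it on both control arrays in 10 of 10 cases. Of the markers of other cell types, 4 of 14 testis, 2 of 3 neuron, 0 of 1 glia and 0 of 2 muscle genes did so.

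On the single 30 and 100 ng arrays, control transcripts read low towards their 5' end. The array has probe sets at the 3' end, middle and 5' end of the transcripts for actin, eIF-4a and GAPDH. Their mean 5' minus 3' difference was -0.75 on each control array and -1.25 and -0.64 at 10 ng, against -9.40 at 30 ng and -8.25 at 100 ng. The mean middle minus 3' difference was -0.44 and -0.56 in controls and -0.58 and -0.45 at 10 ng, against -2.78 at 30 ng and -6.60 at 100 ng. On both arrays the signal was thus lower in the middle as well as at the 5' end, with the 5' end the lower, and the middle was lower at 100 ng than at 30 ng. The 3' probe sets differed at 100 ng. That of GAPDH read 12.71 and 12.57 in controls and 10.05 at 100 ng. That of eIF-4a read 14.90 and 15.01, then 14.40, and that of actin 14.70 and 14.67, then 14.88. The sources used here do not say where the probe sets of the proteasome genes lie along their transcripts. The part of the 5' and middle loss in the changes at 30 and 100 ng was therefore not tested. With 1 array at each of these doses, dose and this loss cannot be told apart.

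**Figure D1:**
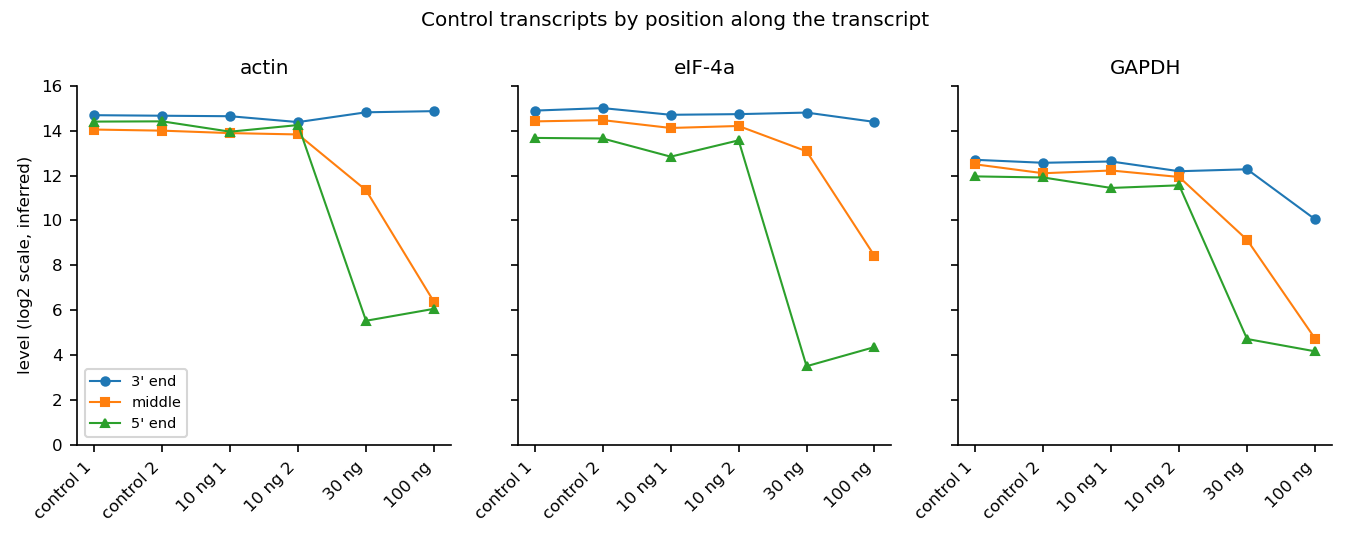
Levels (log2 scale, inferred) of probe sets at the 3' end, middle and 5' end of 3 control transcripts on each of the 6 arrays. The 5' signal is low on the 30 and 100 ng arrays (actin 5.52 and 6.06), and the middle signal is lowest at 100 ng (actin 6.37).

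The 27 genes other than paralogs were all well above background in S2 cells. On the control arrays they read between 10.70 and 13.42, and on all 6 arrays they lay over the highest Tag control. The control arrays differed by at most 0.37 for any of them (Rpt3, 11.83 and 12.20). Their median level was 12.26 and 12.28 on the controls, 12.36 and 12.06 on the 10 ng arrays, 12.16 on the 30 ng array and 10.43 on the 100 ng array. The 10 ng arrays thus lay on either side of both controls and the 30 ng array between the 10 ng arrays, while the 100 ng array lay below all the others. In such bulk RNA, fewer cells and less RNA per cell cannot be told apart.

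**Figure D2:**
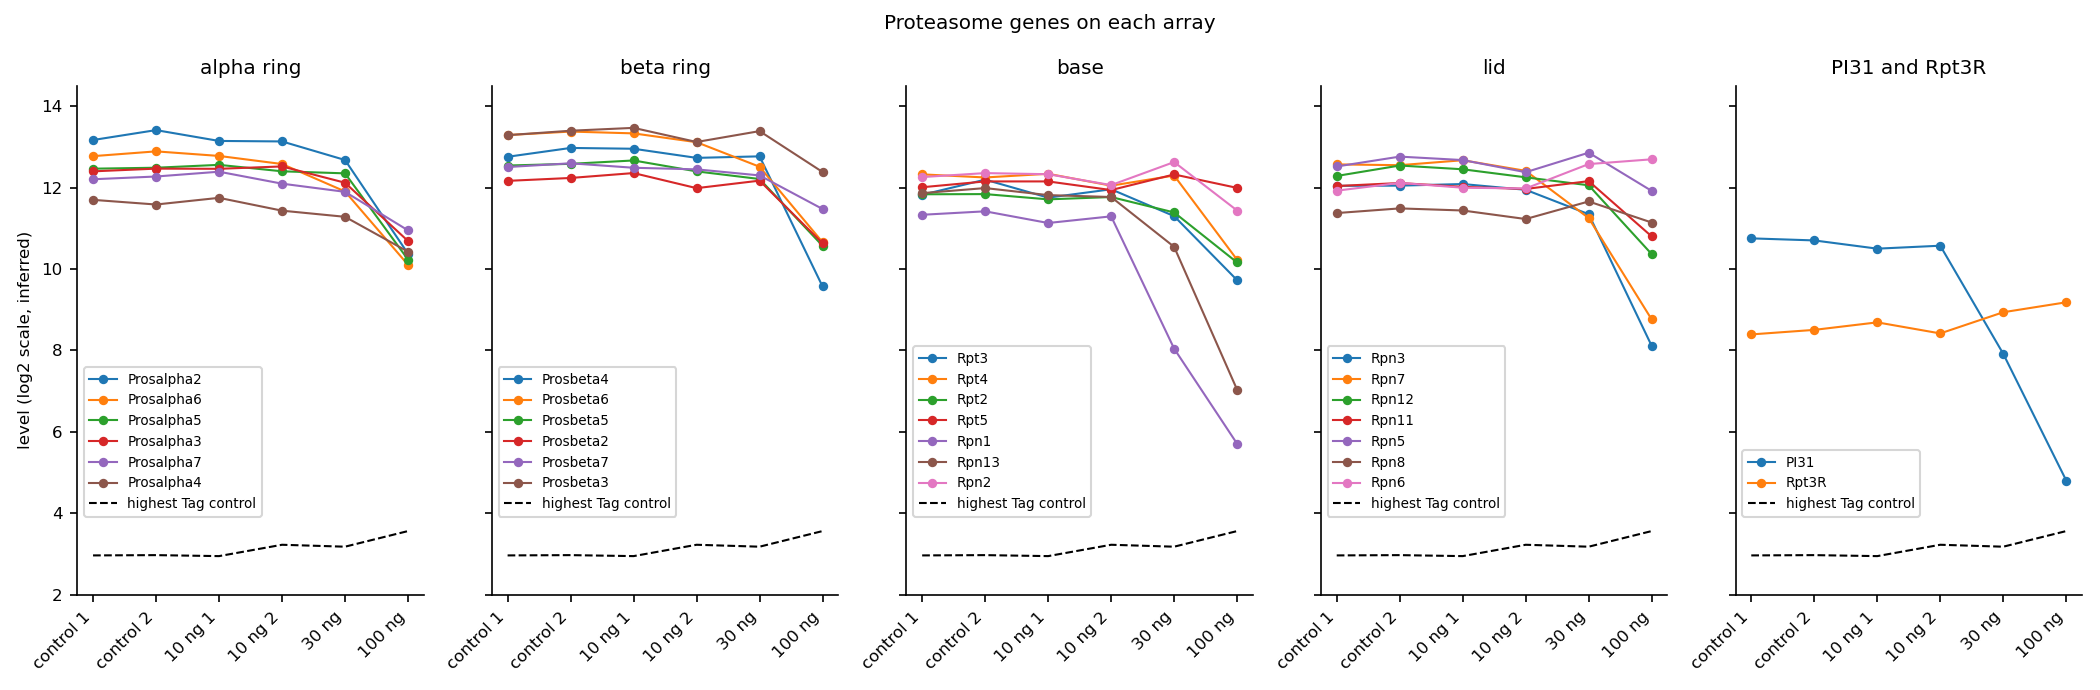
Level (log2 scale, inferred) of the 28 genes tested on each of the 6 arrays, by place in the complex, with the highest Tag control of each array as a dashed line. The medians of the 27 genes other than paralogs are 12.06 to 12.36 on the control and 10 ng arrays, and on the 100 ng array the genes of the base and lid spread from 5.71 (Rpn1) to 12.70 (Rpn6).

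At 10 ng, the replicated dose, no proteasome gene passed the test against control. Of 28 genes tested (the 27 and the paralog Rpt3R), 0 were called lower and 0 higher by limma at an adjusted p under 0.05, and 0 had an unadjusted p under that value. Over all 6610 genes tested, 0% were called lower and 0.0605% higher. The log2 changes ran from -0.19 for PI31 to 0.10 for Rpt3R, with a median of -0.07 against -0.09 for all genes. The 95% confidence intervals of the 28 changes lay between -0.54 and 0.51, so a larger change lay outside each gene's interval. Without the 30 and 100 ng arrays the count was also 0 in each direction.

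At 30 ng, 9 of the 28 genes fell and 1 rose. In the background, 10.4% of all genes were called lower and 6.22% higher (13.6% and 4.05% of the 2272 genes reading 10 or more in controls), or 16.6% in either direction. The median change was -0.33 for the proteasome genes and 0.15 for all genes. All tests at 30 and 100 ng use the same 2 control arrays, with single arrays assumed to vary like the replicated groups. Of the 9 falls, 5 were also called without control replicate 2 (PI31, Rpn1, Rpn13, Rpn7 and Prosalpha6), as they were at face value, and 4 with no filter on dim probe sets (the same genes but Prosalpha6). PI31, Rpn1, Rpn13 and Rpn7 were called lower in all 14 settings that include this dose.

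At 100 ng, 24 of the 28 genes fell, 2 rose and 2 did not pass. Of all genes 35.4% were called lower and 34.9% higher, or 70.3% in either direction, so most of the genes tested were called at this dose. Proteasome probe sets are bright, and among the 2272 genes reading 10 or more in controls 47.2% were called lower and 27.5% higher. The median change was -1.87 for the proteasome genes against 0.05 for all genes and -0.32 for these bright genes. The quartiles of the changes ran from -2.78 to -1.05 for the proteasome genes, and from -1.15 to 0.90 for all genes. The median of all genes depends on scaling, being 0.25 with quantile normalization and -0.35 with median centring. Relative to it, the proteasome median was -1.92 as deposited, -1.96 with quantile normalization and -1.92 with median centring. On this array the 5' and middle control signal was low (-8.25 and -6.60 relative to the 3' end). At 30 ng, where fewer proteasome genes fell, these differences were -9.40 and -2.78. The part of this loss in the falls was not tested.

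The spread among the genes grew with the falls, and that of all genes tested grew as well. The quartiles of all genes ran from -0.17 to -0.01 at 10 ng and from -0.21 to 0.43 at 30 ng. At 100 ng they ran from -1.15 to 0.90, against -2.78 to -1.05 for the proteasome genes. The 10 ng changes rest on 2 arrays and those at 30 and 100 ng on 1 each, so the spans are not strictly alike. The change of the 27 subunit and regulator genes spanned 0.25 on the 10 ng arrays, 3.89 on the 30 ng array and 6.60 on the 100 ng array, from PI31 (-5.93) to Rpn6 (0.68). The ratio of these extremes was 97.1-fold. Within the complex at 100 ng, the changes spanned 1.70 in the alpha ring, 2.34 in the beta ring, 5.58 in the base and 4.61 in the lid. The differences between these parts of the complex were not tested.

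**Figure D3:**
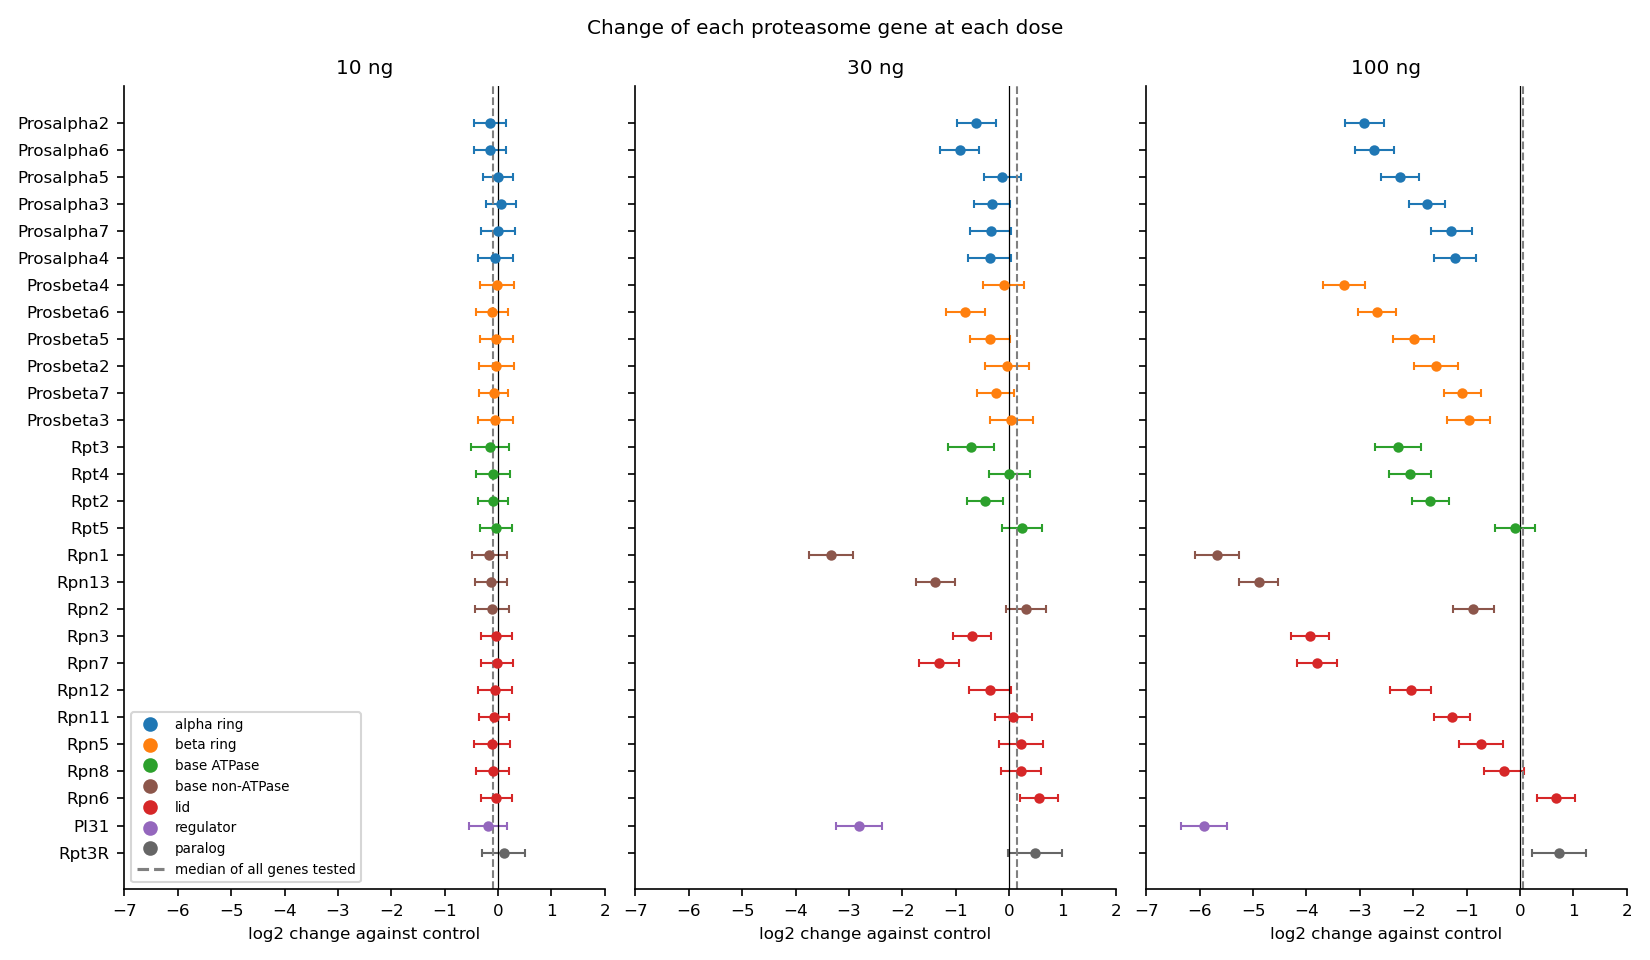
Log2 change against control at 10, 30 and 100 ng for the 28 genes tested, with 95% confidence intervals from limma, coloured by place in the complex. The dashed line is the median of all genes tested; the 10 ng changes lie between -0.19 and 0.10, whereas at 100 ng they run from -5.93 (PI31) to 0.73 (Rpt3R).

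The alpha ring, which forms the gate of the core particle, fell as a whole at 100 ng, with 6 of 6 genes called lower (median -1.995) and 2 of 6 at 30 ng (median -0.35). Among genes reading 10 or more in controls, 47.2% were called lower at 100 ng and 13.6% at 30 ng. The counts for the beta ring, base and lid below stand beside the same shares. Prosalpha2 (probe set 1635872_at) read 13.17 and 13.42 in controls, 13.15 and 13.14 on the 10 ng arrays, 12.68 on the 30 ng array and 10.38 on the 100 ng array. Both single arrays lay below the other 4, with changes of -0.61 (SE 0.16, adjusted p = 0.0316) and -2.92 (SE 0.16, adjusted p = 2.69e-07). Its call at 30 ng was lost without either control array, with adjusted p = 0.0828 and 0.264. Prosalpha6 read 12.78 and 12.89, then 12.78 and 12.58 on the 10 ng arrays, 11.91 on the 30 ng array and 10.11 on the 100 ng array. It was again lowest on the single arrays, 1.90-fold lower at 30 ng (adjusted p = 0.00405) and 6.63-fold lower at 100 ng (adjusted p = 4.04e-07).

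For Prosalpha5 the readings were 12.47 and 12.49 in controls, 12.56 and 12.40 on the 10 ng arrays, 12.35 on the 30 ng array and 10.23 on the 100 ng array. Only the 100 ng array stood apart, 4.74-fold lower (adjusted p = 1.15e-06), while the 30 ng change was -0.13 (adjusted p = 0.594). The smallest falls in this ring were those of Prosalpha4 and Prosalpha7. Prosalpha4 read 11.70 and 11.59, then 11.75 and 11.44, 11.28 and 10.43 on the 30 and 100 ng arrays, a change of -1.22 at 100 ng (adjusted p = 1.94e-04). Prosalpha7 read 12.21 and 12.28, then 12.39 and 12.10, 11.90 and 10.95, a change of -1.29 (adjusted p = 1.01e-04). Prosalpha3, the remaining member, changed by -0.31 at 30 ng, which did not pass, and fell by 1.75 at 100 ng. The probe set shared by Prosalpha1 and Prosalpha1R read 14.13 and 14.20 in controls, 14.26 and 13.95 on the 10 ng arrays, 13.65 on the 30 ng array and 10.17 on the 100 ng array.

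The beta ring carries the catalytic subunits, and all 6 of its genes fell at 100 ng (median -1.78), against 1 of 6 at 30 ng (median -0.18). Prosbeta4, a structural subunit, read 12.76 and 12.98 in controls, 12.96 and 12.73 on the 10 ng arrays, 12.77 on the 30 ng array and 9.57 on the 100 ng array. The 30 ng array lay among the control and 10 ng arrays, with a change of -0.10 (95% interval -0.49 to 0.29), yet at 100 ng the gene was 9.83-fold lower (adjusted p = 1.77e-07). Prosbeta6 was the beta gene that fell at both doses. It read 13.29 and 13.38, then 13.34 and 13.12 on the 10 ng arrays, 12.52 on the 30 ng array and 10.66 on the 100 ng array, so the single arrays were below the other 4. The changes were -0.82 (adjusted p = 0.00787, but 0.0555 without control replicate 2) and -2.68 (adjusted p = 4.49e-07).

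Prosbeta5 encodes the subunit with chymotrypsin-like activity. Its readings were 12.55 and 12.59 in controls, 12.67 and 12.40 on the 10 ng arrays, 12.21 on the 30 ng array and 10.57 on the 100 ng array, a fall of 3.98-fold at 100 ng (adjusted p = 4.29e-06). Prosbeta2, with trypsin-like activity, differed by -0.03 at 30 ng and fell by 1.57 at 100 ng (adjusted p = 4.29e-05). The smallest falls were those of Prosbeta3 and Prosbeta7. Prosbeta3 read 13.29 and 13.40, then 13.47 and 13.12, 13.39 on the 30 ng array and 12.39 on the 100 ng array, and was 1.95-fold lower at 100 ng (adjusted p = 9.25e-04). Prosbeta7 read 12.51 and 12.60, then 12.49 and 12.45, 12.30 on the 30 ng array and 11.48 on the 100 ng array, and was 2.11-fold lower (adjusted p = 1.42e-04).

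In the base, 3 of 7 genes fell at 30 ng and 6 of 7 at 100 ng, and the non-ATPase subunits held the widest range. Rpn1 (probe set 1637349_at), the scaffold that docks ubiquitin shuttle factors, read 11.33 and 11.42 in controls, 11.13 and 11.30 on the 10 ng arrays, 8.04 on the 30 ng array and 5.71 on the 100 ng array. It was far below every other array at both single-array doses, 10.1-fold lower at 30 ng (log2 change -3.33, SE 0.18, adjusted p = 5.02e-06) and 51.0-fold lower at 100 ng (-5.67, SE 0.18, adjusted p = 1.34e-08). Rpn13 (1629266_s_at), a ubiquitin receptor that in mammals also anchors a deubiquitinase, read 11.87 and 11.99, then 11.82 and 11.77, 10.55 on the 30 ng array and 7.03 on the 100 ng array. Its fall was 2.61-fold at 30 ng (adjusted p = 3.63e-04) and 29.8-fold at 100 ng (adjusted p = 1.36e-08). Rpn2, the large scaffold related to Rpn1, behaved otherwise. It read 12.26 and 12.36, then 12.33 and 12.06, 12.63 on the 30 ng array, the highest of its 6 readings, and 11.44 on the 100 ng array. The change was 0.32 at 30 ng (adjusted p = 0.207) and -0.87 at 100 ng (SE 0.17, adjusted p = 0.00113).

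Of the 4 ATPase genes, 1 fell at 30 ng and 3 at 100 ng. Rpt3 read 11.83 and 12.20 in controls, 11.76 and 11.96 on the 10 ng arrays, 11.30 on the 30 ng array and 9.73 on the 100 ng array. The single arrays were the lowest, with changes of -0.71 (adjusted p = 0.0343) and -2.28 (adjusted p = 4.50e-06). The 30 ng call held in 9 of 14 settings. It was lost without control replicate 2 (adjusted p = 0.206), without 10 ng replicate 1 (0.0515), at face value, with no filter and with no intensity trend. Rpt4 (-2.06) and Rpt2 (-1.68) fell at 100 ng as well. Rpt5, whose tail in yeast helps to open the gate of the core particle, read 12.01 and 12.15, then 12.15 and 11.94, 12.33 on the 30 ng array and 11.996 on the 100 ng array. Its 100 ng array lay within the range of the 10 ng arrays, and the change was -0.09 with a 95% interval from -0.46 to 0.28 (adjusted p = 0.665). After median centring Rpt5 was called lower, at -0.49 (adjusted p = 0.0352).

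The lid removes ubiquitin chains and holds the regulatory particle together, and here 2 of 7 genes fell and 1 rose at 30 ng, while 5 fell and 1 rose at 100 ng. Rpn3, a scaffold subunit of the lid, read 12.05 on each control array, 12.09 and 11.95 on the 10 ng arrays, 11.35 on the 30 ng array and 8.11 on the 100 ng array. Both single arrays were lower than the rest. The gene was 1.62-fold lower at 30 ng (adjusted p = 0.0163, lost without control replicate 1 or 2 at 0.0847 and 0.0786) and 15.3-fold lower at 100 ng (adjusted p = 3.76e-08). Rpn7, another scaffold subunit, read 12.57 and 12.55, then 12.68 and 12.41, 11.25 on the 30 ng array and 8.76 on the 100 ng array. It was 2.48-fold lower at 30 ng (adjusted p = 6.19e-04) and 13.9-fold lower at 100 ng (adjusted p = 6.68e-08). Rpn12 read 12.29 and 12.55, then 12.45 and 12.26, 12.06 on the 30 ng array and 10.37 on the 100 ng array, and was 4.14-fold lower at 100 ng (adjusted p = 4.80e-06).

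The other lid genes had smaller changes. Rpn11, the deubiquitinase of the lid, differed by 0.08 at 30 ng and fell by 1.28 at 100 ng (adjusted p = 4.98e-05). Rpn5 fell by 0.72 at 100 ng (adjusted p = 0.00558), a call lost without control replicate 2 (adjusted p = 0.0626). Rpn8, the partner of Rpn11, read 11.38 and 11.49 in controls, 11.44 and 11.23 on the 10 ng arrays, 11.66 on the 30 ng array and 11.14 on the 100 ng array. The 100 ng reading was the lowest, but the change of -0.29 (95% interval -0.66 to 0.08) did not pass (adjusted p = 0.150), except after median centring (-0.69, adjusted p = 0.00502).

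Rpn6 (1628466_s_at) was the subunit gene called higher. This lid subunit clamps the regulatory particle to the core particle. It read 11.93 and 12.12 in controls, 11.9999 and 11.98 on the 10 ng arrays, 12.58 on the 30 ng array and 12.70 on the 100 ng array, so that the single arrays lay above the other 4. The rise was 1.47-fold at 30 ng (adjusted p = 0.0400) and 1.60-fold at 100 ng (SE 0.16 on the log2 scale, adjusted p = 0.00358). The 30 ng call held in 7 of 14 settings (adjusted p from 0.0119 to 0.355) and was lost without either control array, at 0.355 without replicate 1 and 0.114 without replicate 2. The 100 ng call held in 12 of 14, being lost without control replicate 1 (adjusted p = 0.0712) and after median centring (0.27, adjusted p = 0.215).

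PI31 (1626981_s_at) had the largest fall of the 28 genes at 100 ng and the second largest, after Rpn1, at 30 ng. Named as an inhibitor of the core particle in vitro, its product is known in Drosophila to promote proteasome function and transport in neurons. It read 10.76 and 10.70 in controls, 10.50 and 10.57 on the 10 ng arrays, 7.92 on the 30 ng array and 4.80 on the 100 ng array. The 10 ng arrays were both under the controls, by a mean of 0.19 that did not pass (95% interval -0.54 to 0.16). The fall was 7.03-fold at 30 ng (log2 change -2.81, SE 0.19, adjusted p = 1.46e-05) and 60.8-fold at 100 ng (-5.93, SE 0.19, adjusted p = 1.36e-08). The lowest reading was still over the highest Tag control of that array (3.56).

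The probe sets of PI31, Rpn13, Rpn6, Prosbeta5, Prosbeta7 and Rpn12R carry the suffix _s_at, as do those of cnc and Keap1, described below. The array maker gives this suffix to sets matching more than a single transcript, so other transcripts may add to their readings. The sets of Prosalpha5, Prosalpha7, Rpt3R and Npl4 carry another suffix, _a_at. Whether other transcripts add to the readings of these sets was not tested.

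Of the 14 paralogs, 13 were at or near background on all arrays and were not tested, whereas Rpt3R lay above background on all 6. The 13 read between 2.17 and 3.70 on the 6 arrays. Of these, 9 stayed at or under the highest Tag control of every array: Prosalpha3T, Prosalpha4T2, Prosalpha6T, Prosbeta2R2, Prosbeta4R2, Prosbeta5R1, Prosbeta5R2, Rpn12R and Rpn13R. They read between 2.17 and 3.29. The other 4 went over it on some arrays only.

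Rpt4R read 3.15 and 3.16 in controls, 3.41 and 3.08 on the 10 ng arrays, 3.20 on the 30 ng array and 3.24 on the 100 ng array, over the highest Tag control on 4 of 6 arrays. Prosalpha4T1 read 3.05 and 3.12, then 3.02 on each 10 ng array, 3.04 and 3.19, over it on 3 arrays. Prosbeta2R1 read 3.19 and 2.67, then 2.66 on each 10 ng array, 2.71 and 3.70. It passed the background on the first control array and the 100 ng array, and its replicate controls disagreed by 0.53. Prosbeta4R1 passed it on a single array, with 2.35 and 2.44 in controls, 3.26 and 2.33 on the 10 ng arrays, 2.37 on the 30 ng array and 2.74 on the 100 ng array. With no filter, Rpn13R, Prosalpha4T2, Prosalpha6T and Prosbeta5R2 were called higher at 100 ng although they read under the highest Tag control there. That control also read higher on the 100 ng array (3.56) than on the controls.

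Rpt3R, the paralog of the ATPase gene Rpt3, read 8.39 and 8.51 in controls, 8.69 and 8.42 on the 10 ng arrays, 8.94 on the 30 ng array and 9.18 on the 100 ng array. The highest readings were those of the single arrays. It did not pass at 30 ng (0.49, adjusted p = 0.150) and was 1.66-fold higher at 100 ng (log2 change 0.73, SE 0.22, adjusted p = 0.0140), where Rpt3 itself was 4.87-fold lower. The difference between these changes was not tested. The call of Rpt3R was lost without control replicate 1 (adjusted p = 0.0661) and after median centring (0.33, adjusted p = 0.261).

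Markers of the testis did not all lie at background. The summed level of the 14 markers was 50.3 and 49.9 in controls, 49.5 and 49.0 on the 10 ng arrays, 51.7 on the 30 ng array and 56.0 on the 100 ng array. This sum of log2 levels includes markers at background. The highest Tag control itself read 2.96 and 2.97 in controls and 3.56 at 100 ng, so the sum is no measure of testis expression. The markers above background on each control array were mia, bam, topi and Mst84Dc. dj passed it on 3 arrays, with 3.05 on the first control array, 3.26 at 30 ng and 3.57 at 100 ng. The others (vas, aly, can, sa, comr, ocn, Mst84Da, Mst84Db and Mst87F) read between 2.16 and 3.39 on all arrays and under it. Of the 4 tested, bam rose at 100 ng, by 2.06, and the others did not pass. The part of these markers in the rise of Rpt3R was not tested.

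**Figure D4:**
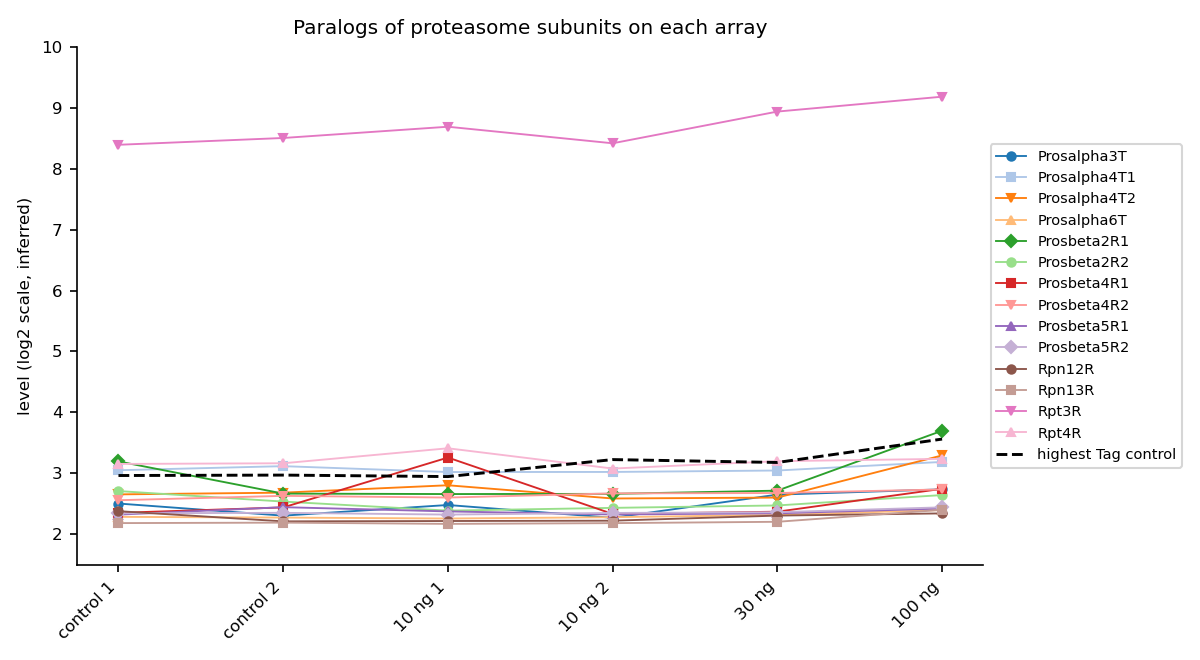
Level (log2 scale, inferred) of the 14 paralogs on each of the 6 arrays, with the highest Tag control as a dashed line. Rpt3R lies between 8.39 and 9.18, and the other 13 lie between 2.17 and 3.70, close to or under the dashed line.

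Other genes of the ubiquitin and proteasome pathway were read from 6 lists, of which 46 of 54 genes had a single-symbol probe set and 45 were tested. None was called at 10 ng. At 30 ng 3 fell and 1 rose, where 10.4% of all genes were called lower and 6.22% higher. At 100 ng 16 fell and 17 rose, where these shares were 35.4% and 34.9%. Many of the listed genes read 10 or more in controls. Among the 2272 such genes, 47.2% were called lower and 27.5% higher at 100 ng. The median at 100 ng was 0.13, against -1.87 for the proteasome genes. The split at 100 ng moved with scaling, to 14 lower and 23 higher with quantile normalization and 19 and 10 with median centring. That at 30 ng was 4 and 7 with quantile normalization and 3 and 0 with median centring.

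Of 5 genes for assembly, activation and bound deubiquitinases, 2 fell and 1 rose at 100 ng. The shares over all genes at this dose were 35.4% lower and 34.9% higher. Uch-L5, the deubiquitinase that Rpn13 holds in mammals, read 10.07 and 10.34 in controls, 10.04 and 10.30 on the 10 ng arrays, 9.86 on the 30 ng array and 6.89 on the 100 ng array, a change of -3.32 (adjusted p = 5.91e-07). Usp14, whose yeast counterpart binds Rpn1, changed by -0.62 at 30 ng and -3.17 at 100 ng. Its 30 ng call (adjusted p = 0.0291) was lost without either control array (adjusted p = 0.156 and 0.125), at face value, with no filter and with no intensity trend. Pomp, the chaperone of core particle assembly, read 11.34 and 11.73, then 11.44 and 11.24, 11.87 and 12.70, a rise of 1.16 at 100 ng (adjusted p = 4.33e-04).

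Among 6 known regulators of proteasome transcription and their processing, 2 fell and 3 rose at 100 ng. The shares of all genes were 35.4% lower and 34.9% higher. The higher call of rngo (0.56) was lost with median centring (0.16) and without control replicate 1 (0.43). The lower call of maf-S (-0.43) was lost with no intensity trend and with the replicate block. It was also lost without control replicate 1 (-0.46) or control replicate 2 (-0.41). cnc, the bZIP factor itself, read 7.95 and 8.35 in controls, 7.61 and 8.08 on the 10 ng arrays, 8.27 on the 30 ng array and 9.91 on the 100 ng array, a rise of 1.76 (adjusted p = 2.90e-04). Keap1, the adaptor that restrains Cnc in the fly, rose by 0.85 at 30 ng (adjusted p = 0.0400) and by 1.99 at 100 ng (adjusted p = 5.46e-05). Its 30 ng call was lost without either control array (adjusted p = 0.146 and 0.0555). sip3, an E3 ligase of the endoplasmic reticulum, read 9.77 and 10.34, then 9.70 and 10.40, 9.44 and 5.68, a change of -4.38 at 100 ng (adjusted p = 1.53e-06). Its replicates were unlike each other in both groups.

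Of 5 genes for substrate extraction and shuttling, 1 fell and 1 rose at 100 ng. p47, a cofactor of the segregase TER94, changed by -1.13 at 30 ng and -3.71 at 100 ng (adjusted p = 0.00132 and 6.68e-08). Npl4, another cofactor, rose by 0.55 (adjusted p = 0.0177), a call lost without either control array (0.0938 and 0.0967) and with median centring (0.15, adjusted p = 0.548). Of 7 ubiquitin and E2 genes tested, 3 fell and 3 rose at 100 ng, from Ubc6 (-1.87), an E2 of DNA repair, to Ubc7 (0.97), an E2 enzyme. Among all genes, 35.4% were called lower and 34.9% higher at this dose.

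The COP9 signalosome is a complex related to the lid, subunit by subunit. Of its 8 genes tested, 1 fell at 30 ng, and 5 fell and 2 rose at 100 ng (median -1.31), against 5 lower and 1 higher of 7 in the lid (median -1.28). CSN7 had the lowest change (-2.92, adjusted p = 7.14e-07) and CSN3 the highest (0.65, adjusted p = 0.00521, lost with median centring at 0.277). CSN5, the counterpart of Rpn11, fell by 2.90 at 100 ng. The autophagy genes, which serve the other main route of protein degradation, had 3 of 14 lower and 7 higher at 100 ng (median 0.47), from Atg6 (-2.73) to Atg7 (1.86). Over all genes, 35.4% were called lower and 34.9% higher at this dose. After median centring the counts were 4 and 5 for autophagy and 6 and 0 for the signalosome.

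**Figure D5:**
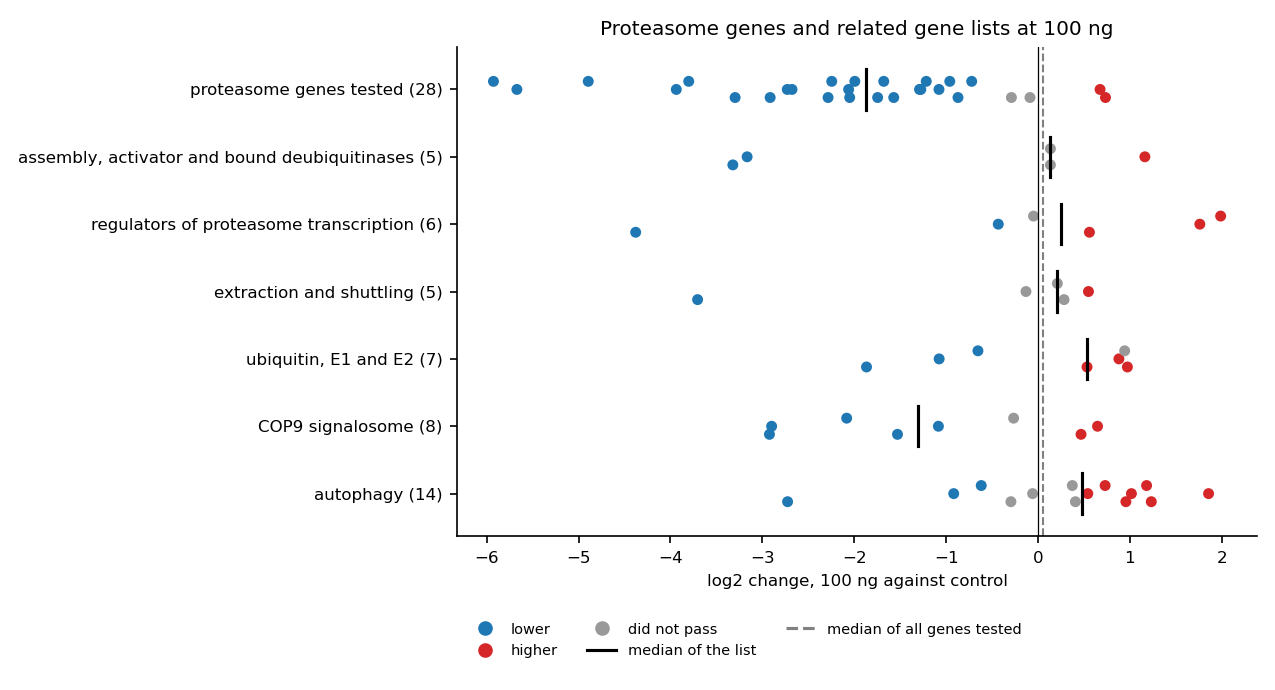
Log2 change at 100 ng against control for the 28 proteasome genes tested and for 6 lists of related genes, with the number tested in brackets, coloured by call. Black bars are list medians and the dashed line is the median of all genes (0.05); the proteasome median lies at -1.87 and that of the COP9 signalosome at -1.31.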

How the data were processed

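RNA of S2 cells was measured on 6 Affymetrix arrays. Per the submitters' processing notes, the deposited intensity values were made by GCRMA, with no version or settings. All 6 columns were assigned to titles (0 unmapped). The natural log of the deposited intensity was read as the log2 GCRMA value, an inference: it reaches 15.8, within a 16-bit scanner, against 22.9 for log2 at face value. Scanner files were not used here.

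A probe set was tested if 2 or more arrays read at least 4 (8446; 183 control probe sets left out). The brightest single-symbol probe set stood for each gene (6610 tested). limma 3.58.1 in R 4.3.3, with the data.table package (version 1.17.8), used 1 coefficient per group, eBayes with an intensity trend and Benjamini-Hochberg adjustment over probe sets in each comparison, on 2 residual and 7.60 prior degrees of freedom. Scripts were tested on simulated data. Figures used matplotlib 3.10.9 in Python 3.11.15. The members and lists were chosen with earlier results of these data known. Named in full were PI31, the 3 lowest and 2 highest changes at 100 ng of each ring, base and lid, genes called at 10 ng or called higher, and paralogs over the highest Tag control. Of each other list, the lowest and highest at 100 ng were named, and other genes named from these lists were picked after their values were seen. No genome coordinates or sequences are given. Replicates were not copies: 5 values of 18952 were identical between the controls and 6 between the 10 ng arrays.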

Additional observations from a re-analysis of the deposited data

How the results depend on the processing

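At 30 ng the number of proteasome genes called lower was 9 as reported, 5 at face value and 4 with no filter, and between 5 and 10 when a replicate was left out (5 without control replicate 2). The 1 call higher at 30 ng, Rpn6, became 0 at face value, with no filter, after median centring, with no intensity trend and with the replicate block, and lay between 0 and 1 when a replicate was left out. At 100 ng the number called higher was 2 as reported, 4 at face value, 6 with no filter and 0 after median centring, and between 0 and 2 when a replicate was left out (0 without control replicate 1). The added calls at face value or with no filter were paralogs near background. The number called lower at 100 ng was 23 to 26 over all 14 settings, and at 10 ng it was 0 in each direction in 15 settings, of which the fit without the 30 and 100 ng arrays was chosen after seeing the data. With the replicate block the lower calls were 9 at 30 ng and 24 at 100 ng, as reported. Over 8446 probe sets the deviations of same-numbered control and 10 ng arrays had a correlation of 0.33, but with 2 arrays a group this does not establish pairing. The mean of all probe sets of a gene gave the same member values, since each member has 1 probe set. The median centring that shifts all genes at 100 ng by -0.40 accounts by construction for the lost higher calls there. It centres on the median of all probe sets, which lay near background. That median was 3.37 and 3.35 on the controls and 3.77 at 100 ng. The highest Tag control read 2.96, 2.97 and 3.56 on these arrays. The background correction could not be varied here. The single 30 and 100 ng arrays and the lost 5' control signal limit all values at these doses.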
